A study of Caenorhabditis elegans with 2 samples.

Results

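The 10 heterochronic protein-coding genes lin-42, nhl-2, lin-66, puf-9, lin-28, lin-14, lin-41, lin-29, hbl-1 and lin-46 were examined for chromatin occupancy by SEA-2, out of 19973 protein-coding genes on the 6 nuclear chromosomes. They were chosen by name from the pathway, and on the deposited peak signal and threshold calls seen in earlier results of these data, so their peak values are given as a description and carry no test. For each gene, every candidate peak was collected whose summit lay in the gene body or up to 1000 bp upstream of its annotated start (Ensembl annotation of WBcel235, the ce11 sequence). The windows held 128 of the 82563 candidates of the longer pooled list and 6 of the 453 peaks of the optimal list.

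Heterochronic genes set the order in which larval cells of Caenorhabditis elegans adopt stage-specific fates. Early regulators hold cells in young fates until microRNAs lower them, and later regulators then bring on the adult programme of the epidermis. SEA-2 is a zinc finger protein with known roles in sex determination, as an autosomal signal element, and in developmental timing, where it is known to act on lin-28 through that gene's mRNA.

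Chromatin immunoprecipitation followed by sequencing was done on whole young adults at 64 hours, from cultures synchronised as starved L1 larvae after bleaching. Both biological replicates came from strain OP586, which carries the transgene wgIs586, a sea-2 fusion to TY1, EGFP and 3xFLAG together with unc-119(+), in an unc-119 (tm4063) background. The precipitation used an antibody to GFP per the description, while the antibody label names sea-2. The 2 replicates form 1 group, with no other genotype, stage or precipitation analysed here, so that the values below describe one stage of one transgenic strain, in a mixture of all tissues, and no difference between groups was tested. The transgene adds copies of sea-2, and no input or mock precipitation was analysed here.

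Peak signals are the values the authors deposited, used here to rank peaks within a list; no source used here gives their scale. The irreproducible discovery rate (IDR) scores how well the rank of a peak repeats when sets of peaks are compared. Every peak of a thresholded list had a -log10 IDR of 2 or more, an IDR of 0.01 or less, in the ranked list it matched. All 453 peaks of the optimal list met that threshold in the shorter pooled ranked list, of 81415 candidates, and 328 of them did in the longer one. All 431 peaks of the conservative list met it in the longer list. Pooled signals and ranks below are those of the longer list. The ranked lists of the single replicates held 51269 and 50405 candidates. Read depths are unknown.

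Of the 10 genes, 4 carried a peak of the optimal list, namely lin-42, nhl-2, lin-66 and puf-9, against 1.87% of all protein-coding genes. Nothing is read from that difference, because these peaks were known when the genes were listed. Their summit sequences are shown first, because they carry the strongest signals of the group and their letters were not used to choose the genes. Each line gives the plus strand 5′ to 3′ over 100 bp on either side of the summit, from the RefSeq copy of WBcel235, with the motifs GAGAGA and CGCGCA and their reverse complements in capitals. None of the windows shown overlapped an annotated untranslated region.
nhl-2 (chrIII:4899783-4899983): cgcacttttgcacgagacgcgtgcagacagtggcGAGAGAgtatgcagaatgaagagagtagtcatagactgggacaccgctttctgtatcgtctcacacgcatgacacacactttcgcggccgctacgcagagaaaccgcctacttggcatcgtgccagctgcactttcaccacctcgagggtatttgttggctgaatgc
lin-42, strongest peak (chrII:1237996-1238196): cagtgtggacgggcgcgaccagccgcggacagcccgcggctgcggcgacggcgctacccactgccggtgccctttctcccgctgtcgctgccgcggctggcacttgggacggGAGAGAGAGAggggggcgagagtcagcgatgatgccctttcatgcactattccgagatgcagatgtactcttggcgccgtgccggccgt
lin-42, second peak (chrII:1246970-1247170): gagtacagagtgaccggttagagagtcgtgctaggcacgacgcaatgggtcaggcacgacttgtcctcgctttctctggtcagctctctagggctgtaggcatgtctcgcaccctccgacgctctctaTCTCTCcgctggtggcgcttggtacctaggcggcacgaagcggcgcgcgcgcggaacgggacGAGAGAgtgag
lin-66 (chrIV:13887533-13887733): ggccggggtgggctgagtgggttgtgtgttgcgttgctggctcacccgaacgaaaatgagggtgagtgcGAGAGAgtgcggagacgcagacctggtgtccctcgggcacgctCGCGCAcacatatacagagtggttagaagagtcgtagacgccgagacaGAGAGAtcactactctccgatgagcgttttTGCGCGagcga
puf-9 (chrX:5841186-5841386): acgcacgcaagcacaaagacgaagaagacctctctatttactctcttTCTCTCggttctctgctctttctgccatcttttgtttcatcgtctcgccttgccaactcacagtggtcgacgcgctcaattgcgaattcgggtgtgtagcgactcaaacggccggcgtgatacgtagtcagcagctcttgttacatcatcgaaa

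GAGAGA stood in 5 of the 6 optimal-peak windows of these genes, the exception being the weakest peak of lin-42, which is not shown. Over all distinct candidates the same motif, on either strand, was present in 11.7% of 80944 windows of the same length, and over the distinct optimal peaks in 27.9% of 445. CGCGCA, which does not overlap GAGAGA, stood in 1 of the 6 windows, that of lin-66, where it occurred at 2 places, against 4.01% of candidates and 18.4% of optimal peaks. Both motifs were chosen because earlier results of these data had shown them in excess among the peaks, so these counts are descriptions.

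The windows were richer in G and C than the median candidate, but not all of them stood out among optimal peaks. The GC content of the 6 windows ran from 48.8 to 68.7% with a median of 56.7%, while distinct candidates averaged 40.1% ± 7.11 (SD, n = 80944) and distinct optimal peaks 49.1% ± 7.13 (SD, n = 445). Medians of the distinct candidates and of the distinct optimal peaks were 39.8% and 49.3%. The strongest lin-42 peak, at 68.7%, was matched or exceeded by 0.674% of optimal windows, and the second lin-42 peak, at 62.2%, by 3.60%. The lin-66 window had 59.2%, matched or exceeded by 8.99% of optimal windows, and the nhl-2 window 54.2%, by 25.4%. The puf-9 window had 49.8%, matched or exceeded by 48.5%, and the window of the third lin-42 peak 48.8%, by 53.9%. None of the 171 31-base words in any of the 6 windows recurred elsewhere in the nuclear genome. This was also so for the strongest pooled candidates of lin-14, lin-29, lin-41 and hbl-1. At the strongest pooled candidate of lin-28 13.5% of the words recurred, and at that of lin-46 56.7%. Windows of the shown peaks held 15 (nhl-2), 24 and 21 (lin-42), 19 (lin-66) and 17 (puf-9) CG dinucleotides, against medians of 7 in candidates and 13 in optimal peaks. The window of the third lin-42 peak, which is not shown, held 8, below the median of optimal peaks.

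Some of the optimal summits also lay at short annotated transcripts. Of the 6 summits, 3 lay inside genes annotated as non-coding RNA: F26F4.14 at the nhl-2 peak, F47F6.15 at the second lin-42 peak, and both W06B11.7 and W06B11.9, which overlap on opposite strands, at the puf-9 peak. The starts of these non-coding genes were 64 to 101 bp from the summits. The start of another, F47F6.13, was 102 bp from the second lin-42 summit, which lay outside that gene. Such genes cover 1.09% of the bases of the 6 chromosomes, and held 1.92% of distinct candidate summits and 15.1% of distinct optimal summits, so the location is also common among optimal peaks at large.

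The genes nhl-2, puf-9, lin-66, lin-28 and lin-41 are described first. The nhl-2 gene (WBGene00003598, chromosome III, 4893658 to 4899085, minus strand) encodes a TRIM-NHL protein known to raise the activity of microRNA complexes, and it held the highest signal of the 10 genes. Its optimal peak (4899731 to 4900034, summit 798 bp upstream of the start) had a pooled signal of 215 and ranked 29 of 82563 candidates. Replicate 1 gave a signal of 101 at this place, ranking 48 in its own list, and replicate 2 gave 112, ranking 29. The peak stood in all 4 thresholded lists, and no other peak of the 10 genes did. The summit was nearer to the start of tag-340, 625 bp away on the opposite strand, than to that of nhl-2, so the peak lies between divergent genes and its assignment to nhl-2 rests on the 1000 bp reach.

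The nhl-2 window held 12 candidates, and the next strongest had a signal of 40.5, in coding exon 5, ranking 12510. Through its upstream peak nhl-2 was exceeded by 0.0601% of protein-coding genes.

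The puf-9 gene (WBGene00004245, X, 5841592 to 5845987, plus strand) encodes a Pumilio-family RNA-binding protein known to repress hbl-1. Its optimal peak (5841134 to 5841437, summit 306 bp upstream) had a pooled signal of 79.0 and ranked 499. The replicates differed there: replicate 1 had a signal of 25.1 and a rank of 12350, and replicate 2 had 54.2 and a rank of 159. The peak was in the thresholded list of replicate 2 but in neither that of replicate 1 nor the conservative list. Of the 3 other candidates in the window the strongest had 35.3.

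The lin-66 gene (WBGene00001562, IV, 13888079 to 13893986, plus strand) encodes a protein known to lower lin-28 activity. Its optimal peak (13887481 to 13887784, summit 446 bp upstream) had a pooled signal of 79.0 and ranked 498. Replicate 1 had 54.2 there with a rank of 286, and replicate 2 had 28.4 with a rank of 3626. A second candidate lay 103 bp inside the gene in the first exon, with a pooled signal of 68.6 and a rank of 995. At that second place replicate 1 had 38.3 and replicate 2 had 34.9, which made it the strongest candidate of replicate 2 in the gene, while the upstream summit was the strongest of replicate 1. The optimal peak of lin-66 stood in the thresholded list of neither replicate and not in the conservative list.

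The lin-28 gene (WBGene00003014, I, 8407630 to 8410804, minus strand) encodes the RNA-binding protein that blocks maturation of the let-7 microRNA and holds second-stage fates. It carried no thresholded peak in any list. Its 4 pooled candidates had signals of 31.0, 26.0, 21.9 and 9.78, and the strongest, 521 bp upstream, ranked 27505. Replicate 1 had 0 candidates in the window, which was also the case for 23.7% of protein-coding genes, and replicate 2 had 2, with signals of 18.0 and 14.8. A stronger candidate was found in 59.5% of protein-coding genes. Weak binding below the reach of the ranked lists would not be seen in these values.

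The lin-41 gene (WBGene00003026, I, 9334800 to 9342496, minus strand), a let-7 target that encodes a TRIM-NHL RNA-binding protein and represses lin-29, had the lowest pooled maximum of the 10. Its 8 pooled candidates reached 24.2, below the 24.9 that is the median of all candidates, and 72.7% of protein-coding genes had a stronger one. Its upstream 1000 bp held 0 candidates. Each replicate listed 2 candidates. The strongest of replicate 1 had 30.9 and ranked 5270 of 51269, and that of replicate 2 had 16.1 and ranked 25884 of 50405, 3463 bp away. The low place of lin-41 thus holds in the pooled list and in replicate 2 but not in replicate 1, where its strongest candidate stood at percentile 89.72 against 47.93 in the pooled list.

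**Figure D1:**
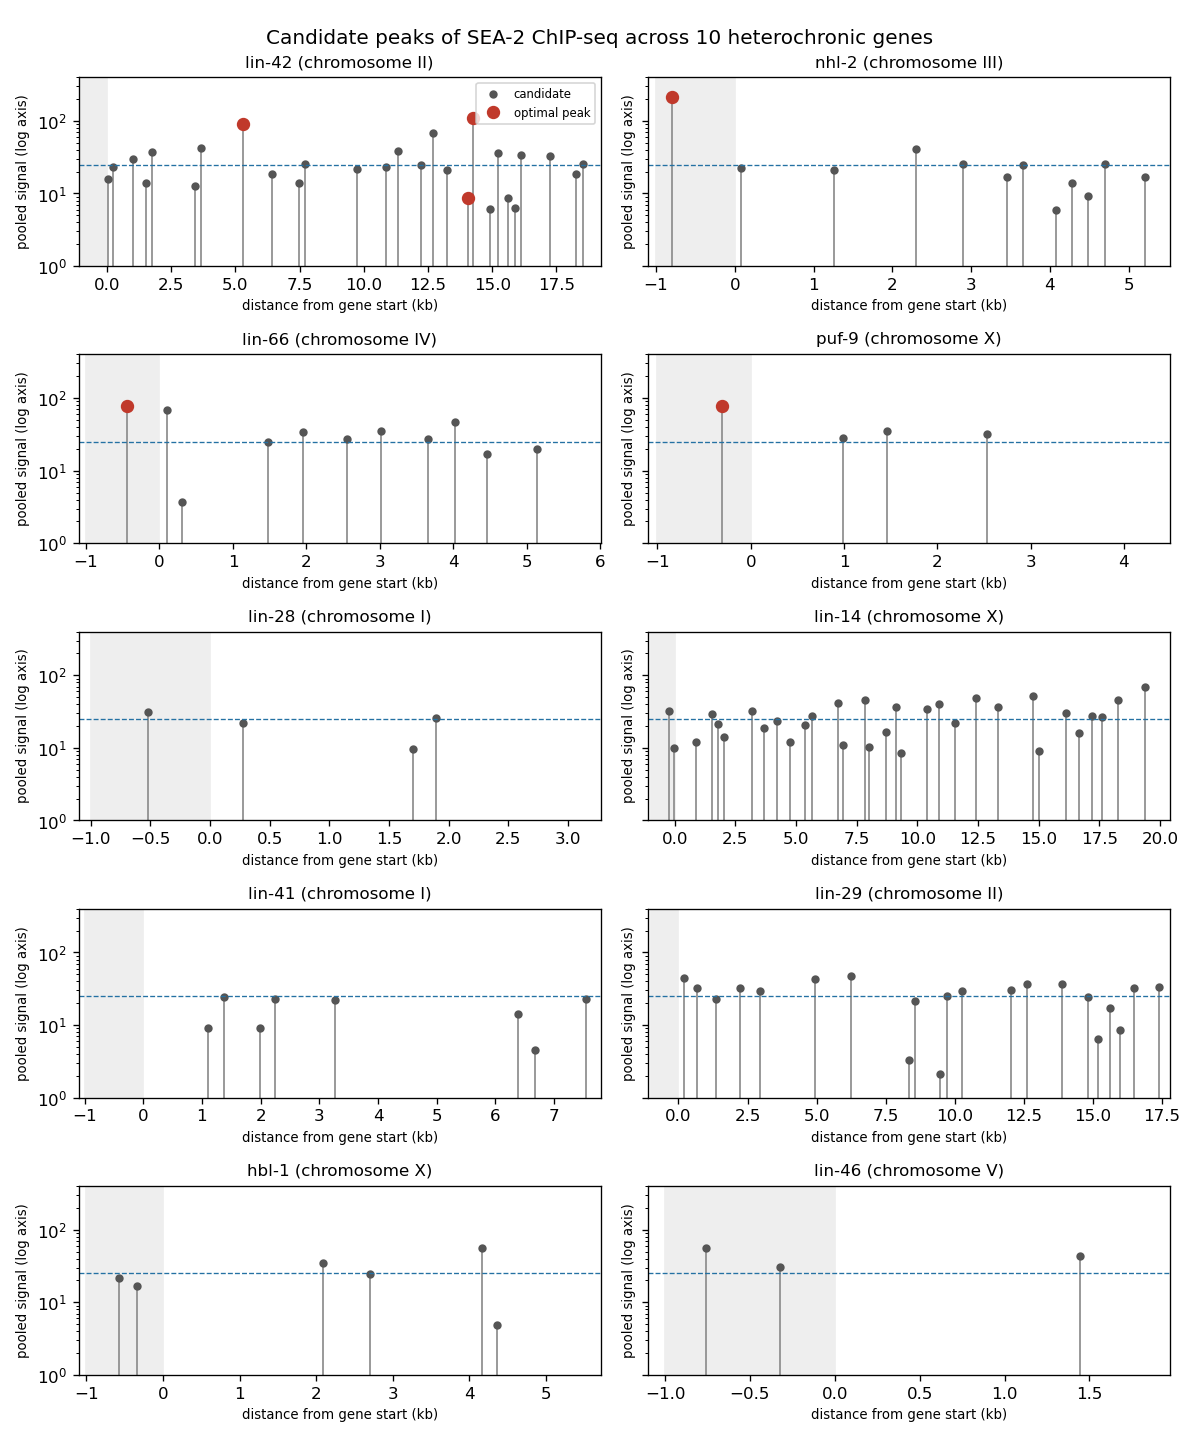
Pooled signal (log axis) of every candidate of the longer pooled list against the distance of its summit from the gene start in kb, for each of the 10 genes; red points are peaks of the optimal list, the grey band is the 1000 bp upstream and the dashed line is the median of all candidates, 24.9. In nhl-2, lin-66 and puf-9 the optimal peak lies in the band, while in lin-42 all 3 lie in introns.

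The lin-42 gene (WBGene00018572, II, 1233236 to 1252359, minus strand), the worm relative of the Drosophila clock gene period and a timer of the moults, was the member with most optimal peaks. All 3 lay in introns, and its 27 candidates in the longer pooled list included 0 upstream of the outermost start. Each of the other 3 ranked lists had 1 there, with signals of 24.7 in the shorter pooled list, 13.6 in replicate 1 and 21.1 in replicate 2. The strongest (1237944 to 1238247) had a pooled signal of 111 and ranked 162. Its summit lay in intron 6 of transcript F47F6.1d.1, 14263 bp from the outermost start but 1127 bp upstream of the start of the short transcript F47F6.1a.1. Replicate 1 had 60.3 there with a rank of 207, and replicate 2 had 52.5 with a rank of 171. Both replicates placed their strongest lin-42 candidate at this summit, 72 bp apart.

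The second lin-42 peak (1246918 to 1247221), in intron 1 of the same transcript and 3035 bp upstream of the start shared by transcripts F47F6.1b.1 and F47F6.1c.1, had a pooled signal of 91.2 and ranked 307. Replicate 1 had 47.1 with a rank of 561, and replicate 2 had 46.3 with a rank of 288. These 2 peaks were in both the optimal and the conservative list, yet in neither replicate's thresholded list, so each replicate alone ranked them high without passing its own IDR threshold.

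The third optimal peak of lin-42 (1238150 to 1238453) overlapped the strongest one. Its summit was 206 bp away, just past the 200 bp within which summits were merged, so it counts as distinct here, and its signal was 8.73. Its -log10 IDR was 3.00 in the shorter pooled list and 0.19 in the longer one. A further candidate in coding exon 6, 418 bp inside transcript F47F6.1e.1, had a signal of 67.1 and ranked 1123 without entering a thresholded list. Replicate 1 had 31.7 there and replicate 2 had 38.3.

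Few genes held as many optimal peaks as lin-42. With summits merged within 200 bp, 6 protein-coding genes, 0.03% of all, had 3 or more. They were sea-2 with 7, whose added copies the strain carries, and ppfr-1, lin-42, F26F12.3, tos-1 and Y43F8B.2 with 3 each. The place of lin-42 rests on the overlapping peak with a signal of 8.73, 206 bp from its strongest summit. In the conservative list, which lacks that peak, lin-42 had 2. Window lengths were 22764 bp in sea-2, 26884 bp in ppfr-1, 20124 bp in lin-42, 7765 bp in F26F12.3, 6345 bp in tos-1 and 14173 bp in Y43F8B.2. The gene ppfr-1 encodes a regulatory subunit of protein phosphatase 4. Signals of the highest peaks were 118 in ppfr-1, 110.3 in F26F12.3, 104 in tos-1 and 89.1 in Y43F8B.2, against 111 in lin-42.

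The genes lin-14, lin-29, hbl-1 and lin-46 carried no peak of any thresholded list. The lin-14 gene (WBGene00003003, X, 11465560 to 11485871, plus strand) encodes a nuclear protein that specifies first-stage fates and is the target of the lin-4 microRNA. Its 32 candidates reached a pooled signal of 68.2, at a summit in the 3′ untranslated part of exon 12 (rank 1032), where replicate 1 had 43.1 and replicate 2 had 26.5. The second candidate, with 51.7, lay in intron 3 of transcript T25C12.1a.1 and 25 bp upstream of the start of T25C12.1b.1, and there replicate 1 had 43.1 and replicate 2 had 19.4. The replicates put their strongest lin-14 candidates 1474 bp apart, at signals of 43.2 and 36.5.

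The lin-29 gene (WBGene00003015, II, 11917642 to 11935343, minus strand) encodes the zinc finger factor of the larval-to-adult switch. Its 21 candidates reached 47.9, in intron 4, ranking 6297. Replicate 1 had 40.9 at that summit with a rank of 1231, but replicate 2 had 7.50 with a rank of 48418. The strongest of replicate 2, with 36.3, was 1315 bp away, where replicate 1 had no candidate within 200 bp. In the window of the pooled candidate at that place, 24.6% of the 31-base words recurred elsewhere in the nuclear genome. The second pooled candidate, with 45.1, lay in intron 1, 206 bp inside the gene.

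The hbl-1 gene (WBGene00001824, X, 5822142 to 5827755, plus strand) encodes a Hunchback-like zinc finger factor that holds early fates and is a target of the let-7 family. Its strongest of 6 candidates had a pooled signal of 55.5 in coding exon 8 and ranked 3017. Replicate 1 had 39.3 there and ranked it 1500, and replicate 2 had 14.4 and ranked it 31185. The upstream 1000 bp held 2 candidates, with signals of 21.4 and 16.7.

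The lin-46 gene (WBGene00003031, V, 12968855 to 12970730, plus strand) encodes a gephyrin-like protein that acts downstream of lin-28 and against HBL-1. Its 3 candidates had signals of 56.1, 44.1 and 30.6. The strongest lay 759 bp upstream and ranked 2856, with 36.4 in replicate 1 and 26.8 in replicate 2, and its summit was nearer to the start of R186.8, at 114 bp. In its window 56.7% of the 31-base words recurred elsewhere in the nuclear genome, and the part of the other copies in that signal was not tested.

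**Figure D2:**
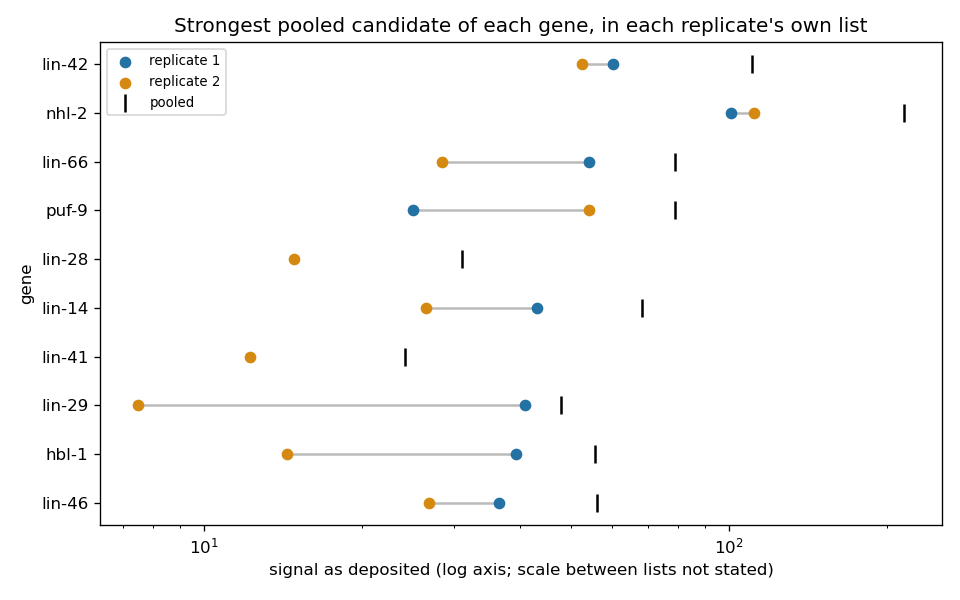
Deposited signal (log axis) of each gene's strongest pooled candidate in the ranked list of replicate 1 (blue), replicate 2 (orange) and the pooled samples (black bar); lin-28 and lin-41 have no replicate 1 candidate within 200 bp. The points lie close together for nhl-2 (101 and 112, ranks 48 and 29) and lin-42 (60.3 and 52.5, ranks 207 and 171). They lie far apart for lin-29 (40.9 and 7.50, ranks 1231 and 48418). The scale of signals between lists is not given, and ranks are those in each replicate's own list.

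The replicates located the same summit in some genes and not in others. In 4 of the 10 genes, namely lin-42, nhl-2, puf-9 and lin-46, the strongest candidates of both replicates lay within 200 bp of each other. The share of all protein-coding genes for which this holds is not given here. Of the genes named, lin-42, nhl-2 and puf-9 were listed with their optimal peaks known, so nothing is read from the count. In 5 others, lin-66, lin-14, lin-41, lin-29 and hbl-1, they lay 613 to 3463 bp apart, and lin-28 had none in replicate 1. By list, 2 of the 10 genes had a peak of the conservative list (lin-42 and nhl-2, against 1.81% of protein-coding genes), 1 had a peak of replicate 1's thresholded list (nhl-2, against 0.731%) and 2 of replicate 2's (nhl-2 and puf-9, against 0.506%).

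The IDR values show how near each gene stood to the threshold. For nhl-2 the -log10 IDR of the strongest candidate was 4.17 in the shorter and 4.02 in the longer pooled list, and for lin-42 it was 3.00 and 3.10. For lin-66 it was 2.04 in the shorter list, just inside the threshold, and 1.79 in the longer one. For puf-9 it was 2.09 and 1.10. The gene just outside was lin-14, with 1.54 and 1.43, followed by lin-46 with 1.13 and 1.25. Of the pooled lists, the calls at lin-66 and puf-9 thus rest on the shorter one. The puf-9 peak also passed in the list of replicate 2, at 2.22.

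**Figure D3:**
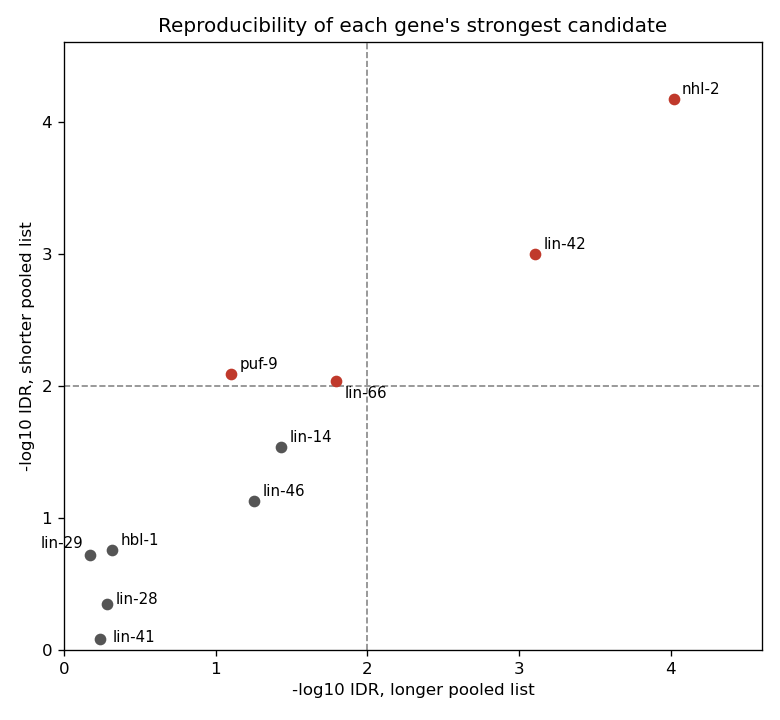
The -log10 IDR of each gene's strongest candidate in the longer (x axis) and the shorter (y axis) pooled ranked list, with dashed lines at 2; red points are genes with an optimal peak. Both lin-42 and nhl-2 pass in both lists, lin-66 and puf-9 pass in the shorter list alone, and the other 6 genes pass in neither.

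Window length bears on such counts, because a longer window holds more candidates. The windows of the 10 genes ran from 2876 to 21312 bp with a median of 6761 bp, against a median of 3027 bp over all protein-coding genes. Of all protein-coding genes, 1.13% had an optimal peak with windows under 3 kb, 1.84% with 3 to 6 kb, 3.82% with 6 to 12 kb and 5.33% with 12 kb and over. Among the members, 0 of 1 had one in the first class, 1 of 2 in the second, 2 of 4 in the third and 1 of 3 in the fourth. Candidates per kb ranged from 0.741 in puf-9 to 1.87 in nhl-2 with a median of 1.08, and over all genes the median was 0.857, with quartiles of 0.442 and 1.25.

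The bulk of the candidates in these genes was ordinary. Of the 128 candidates, 64 had a signal above the median of all candidates, and their own median was 25.004 against 24.9. By position 69 lay in introns, 32 in coding exons, 14 in 3′ and 3 in 5′ untranslated parts and 10 upstream. The strongest candidate of each gene had a median signal of 62.1 over the 10 genes, compared with 38.3 over the protein-coding genes that held a candidate, and 8 of the 10 exceeded the latter. The 16.7% of protein-coding genes with no candidate are not in that median, while all 10 genes held one. Of the 22 other pathway genes described below, 18 also exceeded 38.3. Genes with longer windows had higher medians, 45.6 at 6 to 12 kb and 50.9 at 12 kb and over. As the 10 genes were chosen on signal and had long windows, nothing is read from the contrast with 38.3.

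**Figure D4:**
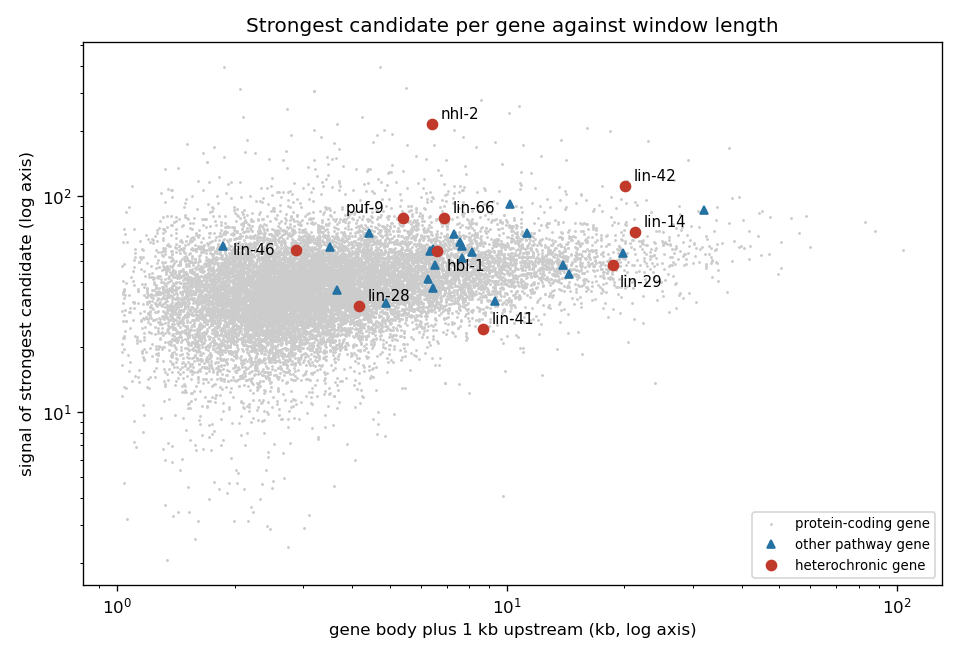
Signal of the strongest candidate (log axis) against window length (kb, log axis) for every protein-coding gene with a candidate (grey), the 22 other pathway genes (blue triangles) and the 10 heterochronic genes (red). The signals of nhl-2 (215) and lin-41 (24.2) lie on either side of 45.6, the median of such genes with windows of 6 to 12 kb, and lin-42 (111) lies above 50.9, the median at 12 kb and over.

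Another 22 genes of the same pathway, listed from textbook knowledge, were read in the same way. They comprised the nuclear receptor branch (daf-12, din-1, daf-9), regulators of larval transitions (dre-1, blmp-1, nhr-23, nhr-25, lep-2, myrf-1, myrf-2, elt-1, cki-1, mab-10, kin-20) and the microRNA machinery (alg-1, alg-2, ain-1, ain-2, cgh-1, pup-2, xrn-2, dcr-1). Of the 22, 2 had an optimal peak, daf-12 and kin-20, against 1.87% of all protein-coding genes, 3.82% of those with windows of 6 to 12 kb, as kin-20 has, and 5.33% of those of 12 kb and over, as daf-12 has. The median of their strongest candidates was 55.3. Both peaks were also in the conservative list, and that of kin-20 was in replicate 2's thresholded list.

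The kin-20 gene (WBGene00002203, X, 15268602 to 15277764) encodes a casein kinase related to Drosophila Doubletime, the kinase that acts with Period. Its peak, 168 bp upstream of the start, had a pooled signal of 91.6 and ranked 306. Replicate 1 had 42.6 as its highest signal in the gene, at 220 bp upstream, and replicate 2 had 50.8, at 168 bp upstream. The daf-12 gene (WBGene00000908, X, 10635908 to 10666875) encodes a nuclear hormone receptor of the larval stage decision. Its peak lay 11906 bp inside the gene, with a pooled signal of 86.04 and a rank of 363, and both replicates had their strongest candidate there, with 46.9 and 41.6. Next in signal, without a thresholded peak, was ain-1, which encodes a GW182-family protein of microRNA complexes, with 67.2 at 975 bp upstream. The maxima of the other 19 genes ran down to 32.01.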

How the data were processed

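Peak lists on ce11 were deposited by the authors; not given in the sources used here are the aligner, the peak caller, their versions and read depths. Signal, as deposited, is the peak caller's value, and the ranked lists as deposited also hold the -log10 IDR. In the pooled ranked lists, 4 columns of signals of the compared peak sets that no label ties to a sample were not used. The maximal widths of the compared peaks in the longer list, 296 and 280 bp, were those of the candidates of replicates 1 and 2; in the shorter list both were 290 bp.

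Summits were assigned with Ensembl release 115, and chromosome lengths of the reference exceeded every peak end. A summit counted for each gene whose window held it. Percentiles, ranks, motif and 31-base word counts were computed with Python 3.11.15, numpy 2.4.6, pandas 2.3.3 and matplotlib 3.10.9, and the assignment was tested on simulated peaks. No test was applied, since there is 1 group and the genes, lists and motifs were chosen with earlier results of these data known. All 10 genes were named. Of the other pathway genes, those with an optimal peak or among the 3 strongest candidates were described. Protein-coding genes with starts nearer to an optimal summit were named too. So were non-coding RNA genes that held such a summit, and genes with as many distinct optimal peaks as lin-42. Replicates were followed to the nearest summit within 200 bp in each replicate's own list. Alternatives were the conservative list, each replicate alone, other windows, assignment to the nearest start, overlap of peaks, stronger peaks and distinct peaks.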

Additional observations from a re-analysis of the deposited data

How the results depend on the processing

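The count of 4 genes with a peak, and of 6 peaks in them, was 2 and 3 with the conservative list, 1 and 3 with the gene body only, and 2 and 2 with the stronger peaks alone (median signal of the list or more). With 1 replicate left out it ran from 1 to 2 genes and from 1 to 2 peaks. Of the 2 other pathway genes with a peak, 1 was left with the gene body only and 0 with the stronger peaks alone, and with 1 replicate left out 0 to 1. The counts stayed within 1.5 times of these values with reaches of 500 or 2000 bp and with assignment to the nearest start. They also did so with overlap of 1 bp and with distinct peaks. However, 500 bp and the nearest start each dropped nhl-2. The share of all protein-coding genes with a peak, 1.87%, was 0.851% with the gene body only and 0.986% with the stronger peaks. It was 1.81% with the conservative list, 0.506% without replicate 1 and 0.731% without replicate 2. With 500 bp it was 1.54%, with 2000 bp 2.28%, with the nearest start 1.28%, with overlap 2.05% and with distinct peaks 1.87%. The lower counts are thus not read as a result about the members. The median percentile of the strongest candidates, 97.65 of 100, was 90.76 with the gene body only and 97.6 to 97.99 with 1 replicate left out, where the value without replicate 2 lacks lin-28, which has no candidate in replicate 1. Single genes moved further: without replicate 2 lin-41 went from 47.93 to 89.72 and puf-9 from 99.4 to 75.91, and without replicate 1 hbl-1 went from 96.35 to 67.04. The causes follow from the construction for the gene body (upstream summits are dropped) and were not tested otherwise. No paired analysis was possible because the replicates form 1 group. Depth is unknown, so a weak candidate cannot be told apart from one that was sampled too thinly.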
